A study of Homo sapiens with 8 samples.

Results

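The lowest dose of helveticoside, 3.75 nM, was compared with its vehicle control in A549 cells, an established human lung carcinoma line. Of 19056 genes with a named probe on the array, 11865 (62.3%) were well above background on both arrays and are described here. The call came from the scanner software, and 1 probe stood for each gene, the one with the highest mean level over the helveticoside arrays. Further arrays held 15 and 60 nM helveticoside and, with a vehicle control of its own, EEDS at 1.25, 5 and 20 ug/mL. EEDS is the seed extract of Descurainia sophia that contains helveticoside. Each of the 8 arrays held RNA pooled from 3 cultures, so there was 1 array per dose. No test across replicates was therefore possible, no p-value is given, and a gene was counted as higher or lower when its intensities differed by more than 2-fold. The control cells received vehicle alone and the treated cells vehicle with helveticoside. The exposure is 48 h in the sample labels and 24 h in the study's methods, and the files do not settle which applies.

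Helveticoside is a cardiac glycoside, a plant steroid that binds the sodium pump, the enzyme that exports sodium and imports potassium across the plasma membrane. A blocked pump lets sodium and then calcium build up in the cell, and such signals reach the nucleus through kinase cascades. Immediate early genes are the first to be transcribed after such a signal, because they need no newly made protein, and many of them encode transcription factors or inhibitors of the same cascades.

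At 3.75 nM, 147 genes (1.24% of those described) exceeded their vehicle level by more than 2-fold and 141 (1.19%) lay more than 2-fold below it. At 1.5-fold the counts were 613 (5.17%) and 729 (6.14%), and at 3-fold 34 (0.287%) and 11 (0.0927%). The other 97.6% lay within 2-fold, around a median log2 ratio of 0.01 with a standard deviation of 0.39 across genes. The 2 vehicle arrays, which carried no drug, differed from each other by more, with a standard deviation of 0.50 over 12387 genes, and 500 genes (4.04%) were more than 2-fold higher and 179 (1.45%) lower on the helveticoside vehicle than on the EEDS vehicle. The genes counted at 3.75 nM were thus fewer than those that separated these controls. The controls were not like arrays, however. The median signal of the dark control spots was 34 on the EEDS vehicle, 138 on the helveticoside vehicle and 124 at 3.75 nM. On the EEDS vehicle 64.9% of probes were well above background, and on the helveticoside vehicle 57.3%. Their difference therefore does not measure the spread between like controls. Probes printed 5 or more times on an array had a median standard deviation over their spots of 0.06 on the log2 scale on the vehicle array and on the 3.75 nM array, which covers the reading of an array and not the cultures. The share past 2-fold was 5.01% in the dimmest of 5 equal bins of genes by mean level and 0.464% in the brightest. All 10 markers of A549 epithelium, among them KRT18 and ALDH1A1, were well above background on both arrays, as were 3 of 5 immune, 1 of 3 endothelial and 1 of 4 fibroblast markers, with PECAM1, COL3A1 and DCN below that call. Of 4 lung lineage markers only SCGB1A1 passed, and NKX2-1, SFTPB and SFTPC did not.

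The genes counted as higher were not spread evenly over the surface of the array. A rectangular zone, drawn after the values were seen, covered 66.7% of the array's width and the part from 25% to 68.8% of its height, and held 29.5% of the probe spots. Of 3346 genes whose probe lay in the zone, 89 were more than 2-fold higher at 3.75 nM (2.66%), against 52 of 7960 genes outside it (0.653%). For genes more than 2-fold lower the shares were 1.11% in the zone and 1.22% outside. In the strip beside the zone, at the same height, 32 of 1687 genes (1.90%) were lower. At 60 nM against the same vehicle array, 366 of 3323 genes in the zone and 868 of 8062 outside (10.8%) were higher, and at 15 nM the shares were 6.69% and 4.95%. Probes printed many times offered a direct reading, since their spots are identical in sequence. Their ratios are of processed signals before normalization. The median processed signal was 108 at 3.75 nM and 153 on vehicle, so these ratios generally lie below normalized ones. Among 532 probes with at least 2 spots on each side of the border, the log2 ratio was more than 0.5 higher in the zone for 11 and more than 0.5 lower for 0, while the median difference was -0.01. A probe for the olfactory receptor OR7C2 had such a log2 ratio of 2.43 in its 2 spots in the zone and -0.97 in its 8 spots outside. A probe for IDO1, which degrades tryptophan, had 1.13 in 3 spots in the zone and -0.22 in 7 outside, likewise before normalization. The position of the probe is given below for the genes past 2-fold that are named, and what produced the zone was not tested.

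**Figure D1:**
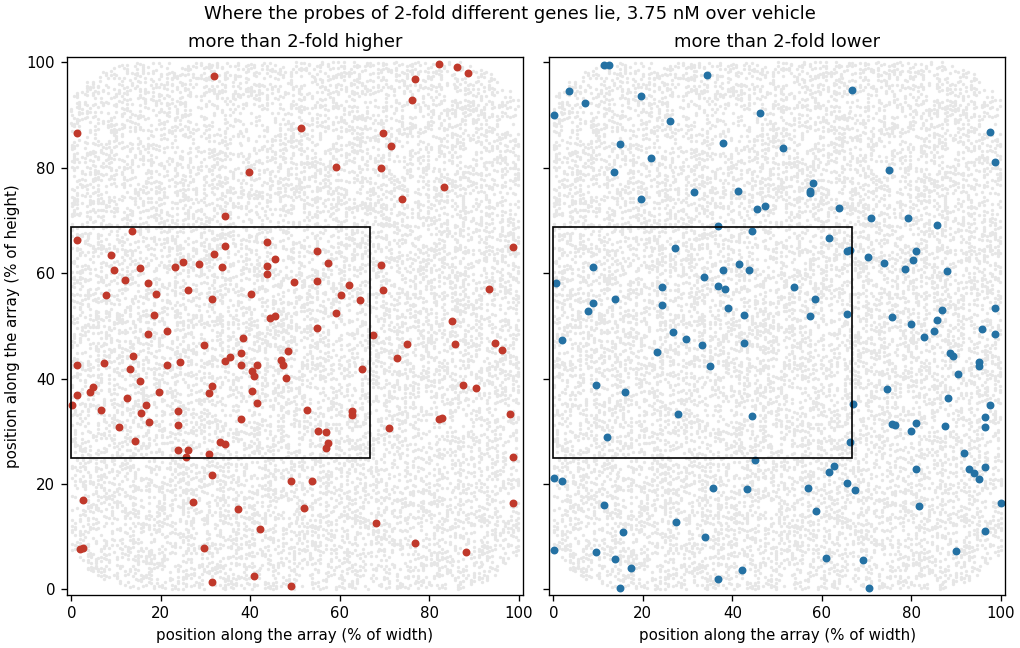
Position on the array of genes with a single spot that were more than 2-fold higher (left, red) or lower (right, blue) at 3.75 nM, among all described genes with a single spot (grey), in percent of the array's width and height. The black rectangle is the zone, where 2.66% of genes were higher against 0.653% outside, and the lower genes show no such crowding inside it.

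**Figure D2:**
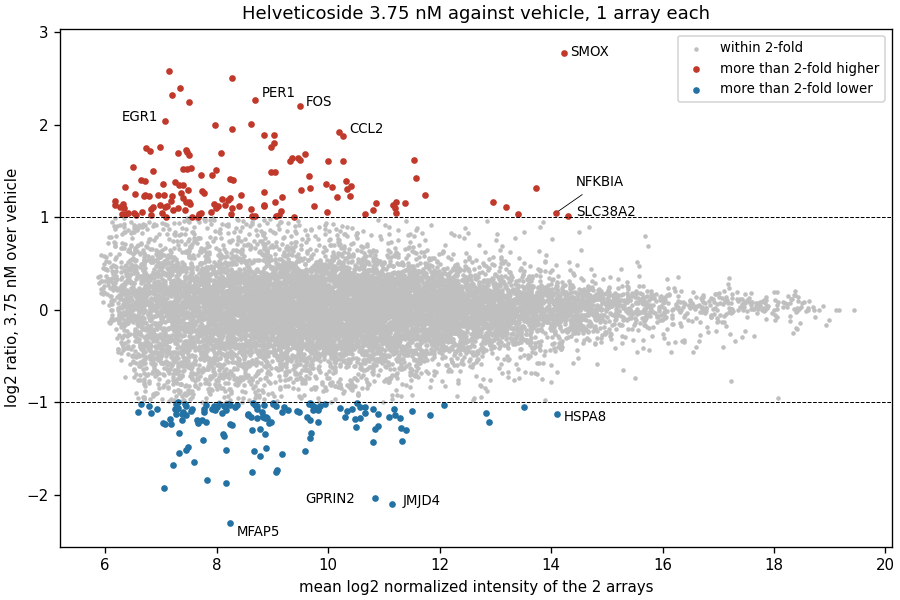
Log2 ratio of 3.75 nM over vehicle against the mean log2 normalized intensity of both arrays for the 11865 genes described, with 1 array on each side and dashed lines at 2-fold. The 147 higher genes (red) and the 141 lower genes (blue) lie mostly at low levels, while SMOX, NFKBIA, SLC38A2 and HSPA8 stand among the bright genes.

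The immediate early genes stood higher as groups. Among 21 immediate early transcription factors described, 4 were more than 2-fold higher, 0 were lower and 18 lay above 0, with a median log2 ratio of 0.78 against 0.01 for all genes. Without the 7 members whose probe lay in the zone and those with spots on both sides, 11 were left and their median was again 0.78, with 2 of them past 2-fold. Against the EEDS vehicle in place of the helveticoside vehicle the median of the 21 was 0.38, against -0.07 for all genes described. The list lay 0.27 lower on the helveticoside vehicle than on the EEDS vehicle, and all genes described lay 0.11 lower. FOS and EGR1 head the list, and PER1, a period gene of the circadian clock that is also switched on by acute signals, was as far apart. The 250 bases before the annotated start of these 3 genes are shown because these are the early response genes with the largest ratios. They are RefSeq sequence of build GRCh38.p14, read on the strand of the gene, chr5:138465229-138465478 on the plus strand for EGR1, chr14:75278578-75278827 on the plus strand for FOS and chr17:8152405-8152654 on the minus strand for PER1. Capitals mark CArG boxes, the binding motif of serum response factor, in EGR1, and the E-box CACGTG, the motif of the CLOCK and BMAL1 pair, in PER1.
EGR1: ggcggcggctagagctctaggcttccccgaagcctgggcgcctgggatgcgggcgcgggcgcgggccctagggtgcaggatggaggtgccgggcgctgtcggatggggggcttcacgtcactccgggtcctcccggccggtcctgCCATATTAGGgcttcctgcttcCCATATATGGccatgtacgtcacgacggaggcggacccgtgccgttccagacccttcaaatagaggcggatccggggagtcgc
FOS: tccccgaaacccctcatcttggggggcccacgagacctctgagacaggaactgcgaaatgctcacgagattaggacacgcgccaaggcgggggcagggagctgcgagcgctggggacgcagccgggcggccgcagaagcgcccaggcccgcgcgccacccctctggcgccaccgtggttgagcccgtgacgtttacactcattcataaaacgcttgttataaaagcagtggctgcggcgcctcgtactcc
PER1: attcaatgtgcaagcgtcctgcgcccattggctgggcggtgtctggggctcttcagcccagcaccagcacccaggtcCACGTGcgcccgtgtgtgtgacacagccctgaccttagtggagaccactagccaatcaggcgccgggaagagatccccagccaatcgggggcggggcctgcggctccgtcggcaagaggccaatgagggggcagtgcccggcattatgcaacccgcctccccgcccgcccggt
EGR1 held 2 CArG boxes, 105 and 83 bases before the start, and PER1 an E-box 173 bases before it, while none of the motifs searched lay in the stretch shown for FOS.

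EGR1, a zinc finger factor induced by growth factors and stress, read 6.06 on the vehicle array and 8.10 at 3.75 nM on the log2 scale, a log2 ratio of 2.04. Its probe lay in the zone, and its ratio was 3.12 at 15 nM and 7.69 at 60 nM against the same vehicle array. FOS, the partner of JUN in the AP-1 factor, read 8.38 and 10.59, a log2 ratio of 2.20, with its probe outside the zone. Both lay lower on the helveticoside vehicle than on the EEDS vehicle, by 0.82 for EGR1 and 0.88 for FOS, and against the EEDS vehicle their log2 ratios at 3.75 nM were 1.22 and 1.32. NR4A2, an orphan nuclear receptor of the early response, read 9.29 and 10.65, a log2 ratio of 1.36, also outside the zone. MAFF, a small MAF factor, read 7.64 and 8.84, a log2 ratio of 1.20, with spots on both sides of the zone's border. Before normalization the log2 ratio of its processed signals was 0.62 over 9 spots, from 0.53 to 0.75, so MAFF passed 2-fold only after normalization. The median processed signal was 108 at 3.75 nM and 153 on vehicle, so ratios before normalization generally lie lower. NR4A1, of the same family as NR4A2, lay just under the threshold. JUN, JUNB, JUND, ATF3 and FOSL1, the other AP-1 members with the highest ratios, lay between 0.83 and 0.94, all within 2-fold. KLF2 had the lowest ratio of the list at -0.70, and MYC stood at 0.01. EGR2, EGR3 and EGR4 were well above background on neither array, KLF4 and NR4A3 only at 3.75 nM, and FOSB and SRF only on the vehicle array.

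The feedback inhibitors and other early genes also lay mostly above 0, with smaller medians. Of 23 other immediate early genes 1 was more than 2-fold higher and 0 lower, 21 lay above 0, and the median log2 ratio was 0.51 (0.53 for the 18 outside the zone). PLK3, a stress-activated polo-like kinase, read 9.74 and 11.07, a log2 ratio of 1.33, with its probe in the zone. PHLDA1, IER5, CREM, IER3 and ZFP36 followed with log2 ratios from 0.82 to 0.97, all within 2-fold, and RHOB stood lowest at -0.38. Among 11 MAP kinase phosphatases and Sprouty genes, which damp the ERK cascade, 1 was more than 2-fold higher, 8 lay above 0 and 3 below. Their median was 0.63. This median was 0.26 for the 7 genes outside the zone, and 0.19 for the 11 against the EEDS vehicle. DUSP5, a nuclear phosphatase of ERK, read 10.61 and 11.74, a log2 ratio of 1.13, with its probe in the zone, and a ratio of 0.63 against the EEDS vehicle. SPRY4 and SPRY1 lay at 0.98 and 0.84, and SPRED1 at -0.80. EREG, a ligand of the EGF receptor that feeds the same cascade, read 9.78 and 11.01 in the zone, and its ratio of 1.23 was followed by 2.57 at 15 nM and 3.50 at 60 nM.

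NF-kappa B and chemokine genes had a median log2 ratio of 0.51 over 16 genes described, of which 3 were more than 2-fold higher and 0 lower. Outside the zone the median was 0.45 over 7 genes, with 0 of them past 2-fold. CCL2, the monocyte chemoattractant, was printed 10 times on the array, on both sides of the zone's border, and read 9.32 on vehicle and 11.20 at 3.75 nM, a log2 ratio of 1.88. Over its spots the ratio of processed signals before normalization ran from 1.29 to 1.46, below the normalized value, as such ratios generally were. NFKBIA, the inhibitor that holds NF-kappa B in the cytoplasm and is itself a target gene, read 13.56 and 14.61, a log2 ratio of 1.05 with spots on both sides of the border. Before normalization, where the 3.75 nM array was the dimmer one, the log2 ratio of NFKBIA was 0.87 over 9 spots. Against the EEDS vehicle it was 0.57, and both values lie within 2-fold. BIRC3, an inhibitor of apoptosis induced by NF-kappa B, read 9.55 and 10.77, with its probe in the zone. NFKBIA stood at 1.05, 0.36 and 0.22 at 3.75, 15 and 60 nM, while BIRC3 stood at 1.22, 2.47 and 3.48. The former was thus farthest from vehicle at the lowest dose and the latter at the highest. CXCL8, the neutrophil chemokine interleukin-8, was well above background at 3.75 nM but not on the vehicle array, and was at least 4.91-fold higher, outside the zone. NFKBIZ had the lowest ratio of the list, -0.45.

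Among 16 circadian clock genes 3 were more than 2-fold higher and 0 lower, and the median log2 ratio was 0.28. PER1 read 7.55 and 9.81, a log2 ratio of 2.27, with its probe in the zone, and of 1.42 against the EEDS vehicle. BHLHE40, a repressor that responds to light, hypoxia and stress, read 10.86 and 12.29, also in the zone. DBP, an output gene of the clock, read 8.12 and 9.14, a log2 ratio of 1.01 outside the zone and of 0.47 against the EEDS vehicle. PER2 and NR1D1 lay at 0.82 and 0.94, and CRY1 was lowest at -0.48.

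The cholesterol synthesis and SREBP control list had a median log2 ratio of 0.12 over 27 genes described. INSIG1, which retains the SREBP complex in the endoplasmic reticulum and is itself an SREBP target, read 9.62 on vehicle and 11.01 at 3.75 nM, a log2 ratio of 1.39 in the zone. It was within 2-fold of vehicle at 15 and 60 nM, with -0.54 and -0.70. HMGCS1, an early enzyme of the pathway, stood at 0.02.

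**Figure D3:**
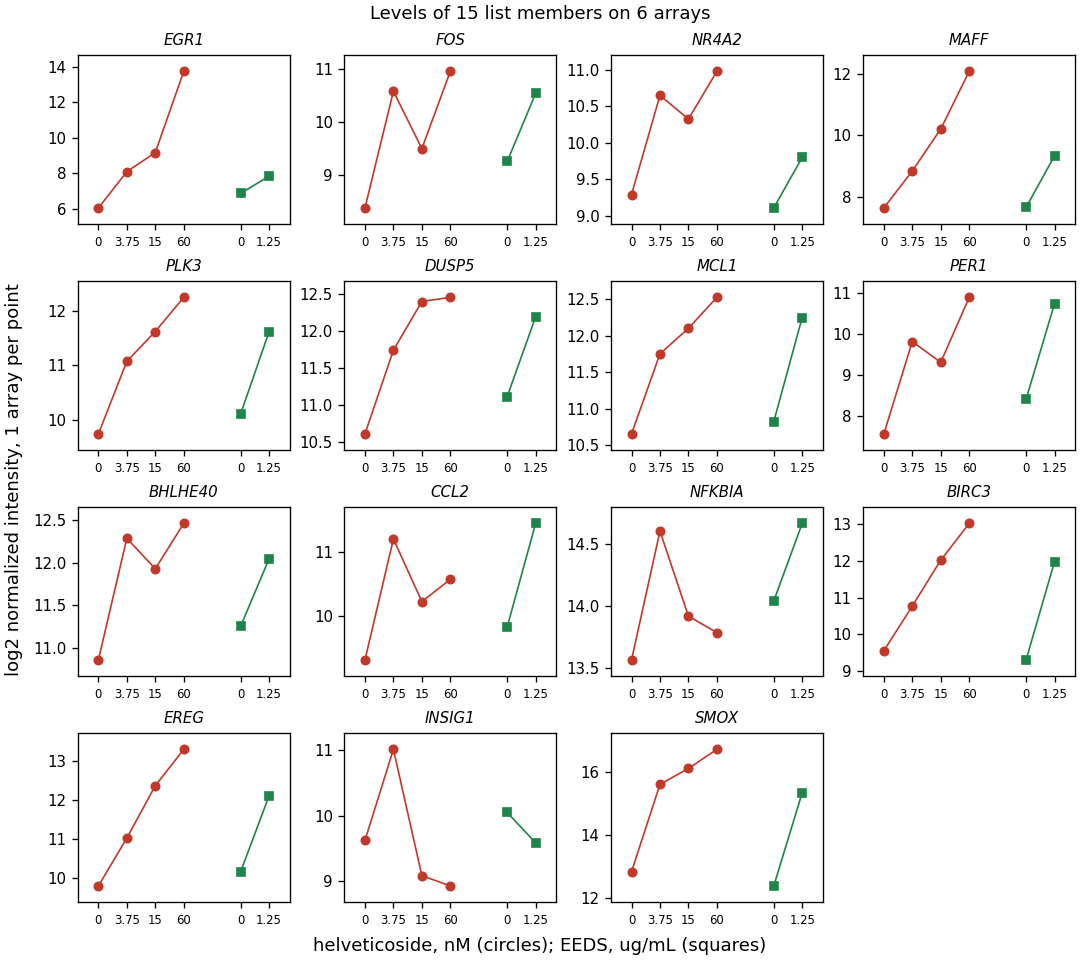
Log2 normalized intensity of 15 list members on the 4 helveticoside arrays (circles, doses in nM) and on the EEDS vehicle and 1.25 ug/mL arrays (squares), with 1 array per point, no error bar and a separate vertical scale per gene. The 15 were picked from genes counted as more than 2-fold higher at 3.75 nM, so their rise there was set by the choice. NFKBIA, CCL2 and INSIG1 have their highest helveticoside level at 3.75 nM.

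SMOX, spermine oxidase, which turns spermine into spermidine with release of hydrogen peroxide, had the largest ratio of all genes described. It read 12.84 on the vehicle array and 15.62 at 3.75 nM, a log2 ratio of 2.78 or 6.86-fold. Its 10 spots lay on both sides of the zone's border, and their ratio before normalization ran from 2.59 to 2.78 with a standard deviation of 0.06. At 15 and 60 nM it stood at 3.28 and 3.89, and at 1.25 ug/mL EEDS, against that series' own vehicle, at 2.97. The other members of its list behaved differently, since the median over 19 genes of polyamine and serine metabolism was 0.06 and SMOX was the 1 gene past 2-fold.

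Of the 15 genes with the largest ratios, 10 had their probe in the zone, 4 outside, and SMOX on both sides. The 4 outside were DMRTA1, a doublesex-related transcription factor (7.03 on vehicle and 9.54 at 3.75 nM), the pseudogene CTAGE10P (6.14 and 8.53), GALNT5, an enzyme of O-glycosylation (6.03 and 8.35), and FOS. DMRTA1 stood 2.12 above vehicle at 15 nM and 0.76 at 60 nM, and with EEDS at 1.25 ug/mL it was 1.73 above that vehicle. GALNT5 was not well above background at 15 or 60 nM. CTAGE10P stood at -0.16 and -0.15 at the higher doses. Among those in the zone, ITGA10, a collagen-binding integrin subunit, read 6.38 and 8.62 and was also 2.41 above vehicle with EEDS. CFAP97D1 (5.86 and 8.44), EVPLL (6.96 and 8.96), YPEL4 (9.24 and 11.16) and FLJ36000 (8.09 and 9.98) shared another course over the doses. Each was nearly as high at 15 nM as at 3.75 nM, 0.40 or less above vehicle at 60 nM, and below the EEDS vehicle at 1.25 ug/mL EEDS. A rule set after seeing them, a 15 nM level within 0.25 of the 3.75 nM level and a 60 nM level within 0.5 of vehicle, found 27 of the 147 higher genes, and all 27 lay in the zone. The same rule found 10 of the 141 lower genes, of which 2 lay in the zone. OR2M7, an olfactory receptor, and LILRA1, a leukocyte receptor, both in the zone, had log2 ratios of 2.01 and 1.95 at 3.75 nM and of -0.64 and -0.99 with EEDS at 1.25 ug/mL.

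**Figure D4:**
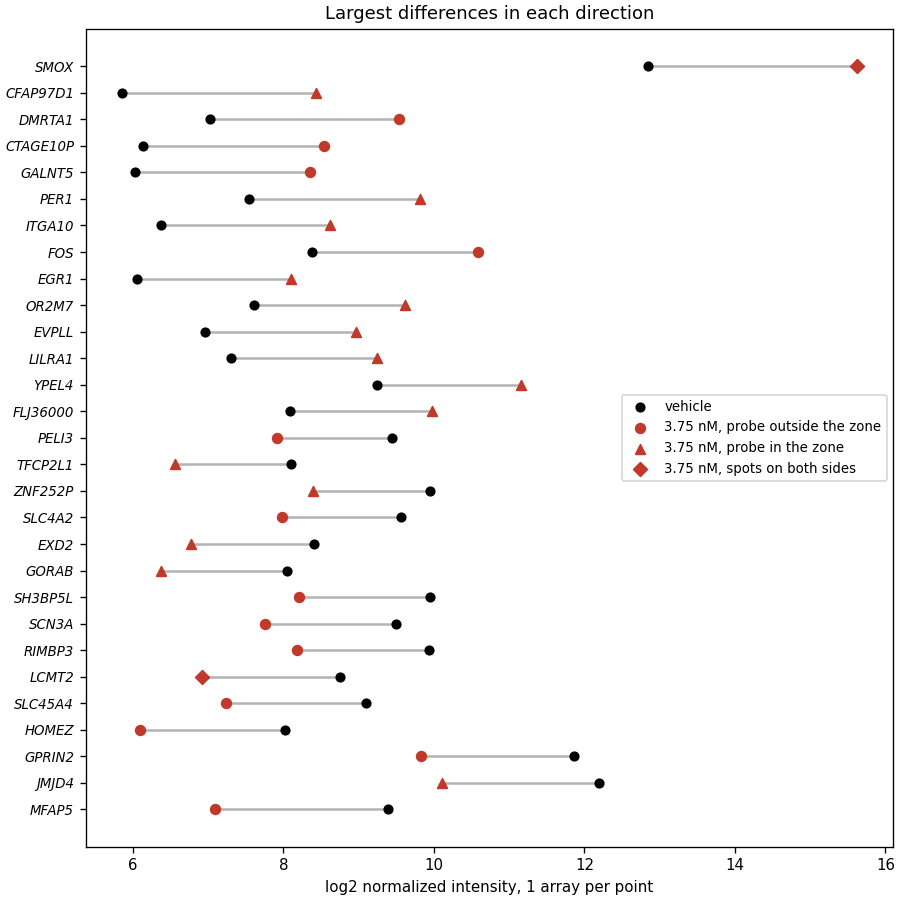
Log2 normalized intensity on the vehicle array (black) and at 3.75 nM (red) for 14 of the 15 genes with the largest and the 15 with the smallest log2 ratio, with 1 array per point. Triangles mark genes whose probe lay in the zone, 9 of the 14 higher and 5 of the 15 lower genes drawn, and diamonds mark SMOX and LCMT2, with 10 spots on both sides.

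Among the lower genes, MFAP5, a microfibril protein of the extracellular matrix, had the smallest ratio, with 9.39 on vehicle and 7.09 at 3.75 nM, a log2 ratio of -2.30, outside the zone. It was also 1.90 higher on the helveticoside vehicle than on the EEDS vehicle, against which its log2 ratio was -0.41. The same held for SCN3A, a neuronal sodium channel (9.50 and 7.75), EXD2, an exonuclease (8.41 and 6.77), and GORAB, a golgin (8.05 and 6.37), which stood 2.56, 1.82 and 1.17 higher on the helveticoside vehicle. SCN3A lay outside the zone, and EXD2 and GORAB lay in it. Against the EEDS vehicle the ratios of SCN3A and EXD2 turned to 0.82 and 0.17. JMJD4, a lysyl hydroxylase, and GPRIN2 differed little between the vehicle arrays, by -0.15 each. JMJD4, in the zone, read 12.20 on vehicle and 10.10 at 3.75 nM and stood at -2.09, -2.13 and -2.52 over the 3 doses. GPRIN2, outside it, read 11.86 and 9.83 and stood at -2.03, -3.43 and -4.71, and at -2.69 with EEDS at 1.25 ug/mL. LCMT2, an enzyme of transfer RNA modification with 10 spots on both sides of the border, read 8.75 and 6.91, and its spots gave ratios from -2.34 to -1.82 before normalization. RIMBP3 (9.94 and 8.18), SLC45A4 (9.10 and 7.23), SLC4A2, an anion exchanger (9.56 and 7.98), and PELI3, a ubiquitin ligase of innate immune signalling (9.44 and 7.91), all outside the zone, lay below vehicle at all 3 doses and with EEDS at 1.25 ug/mL. HOMEZ, SH3BP5L, ZNF252P and TFCP2L1 complete the 15, with log2 ratios of -1.93, -1.74, -1.56 and -1.54, the first pair outside the zone and the second in it.

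Zinc finger genes, most of them repressors of transcription that bind DNA through a row of fingers, were the largest list and stood low. Of 245 described, 13 were more than 2-fold lower and 4 higher, and 167 lay below 0, with a median log2 ratio of -0.23 against 0.01 for all genes. Outside the zone 8 were lower and 2 higher among 177, with a median of -0.22. Genes with a ZNF symbol made up 9.22% of all lower genes, 2.72% of the higher genes and 2.06% of the genes described. ZNF605, with a log2 ratio of -1.34 in the zone, and ZNF397, with -1.33 outside it, had the lowest ratios among them, and ZNF639 the highest, 1.71 in the zone. The list's median at 15 and 60 nM against the same vehicle array was -0.06 and -0.08.

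Genes of DNA replication lay mostly below the vehicle array. Of 39 described, 35 were below 0, 1 was more than 2-fold lower and 0 were higher, with a median log2 ratio of -0.22 (-0.21 for the 28 outside the zone). PRIM1, the catalytic subunit of the primase that starts each DNA strand, read 11.21 and 10.10, a log2 ratio of -1.11 over 10 spots on both sides of the border. It stood at -1.83 and -2.42 at 15 and 60 nM and at -1.22 with EEDS at 1.25 ug/mL. The helicase subunits MCM2, MCM4 and MCM6 lay at -0.43, -0.54 and -0.46, and the sliding clamp PCNA at -0.05. The list also lay 0.16 lower on the helveticoside vehicle than on the EEDS vehicle, where all genes described lay 0.11 lower. Its median at 3.75 nM against the EEDS vehicle was -0.42, and that of all genes described was -0.07. Mitosis genes had a median of -0.04 over 32 genes, with 0 past 2-fold in either direction.

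Heat shock proteins had the lowest median of the lists with 10 or more genes, -0.25 over 25 genes, with 1 lower and 0 higher. HSPA8, the constitutive cytosolic chaperone of the HSP70 family, read 14.68 and 13.55, a log2 ratio of -1.13 outside the zone, and stood at -3.22 and -4.15 at 15 and 60 nM. The inducible pair HSPA1A and HSPA1B, whose near-identical sequences a probe may not separate, lay at -0.98 and -0.84, and DNAJB1, their co-chaperone, at -0.67. The chaperones of the endoplasmic reticulum had a median of -0.08 over 26 genes with 0 past 2-fold.

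In the ATF4 stress response, 29 genes had a median of 0.04, with 0 higher and 1 lower at 3.75 nM, against list medians of 1.46 at 15 nM and 0.91 at 60 nM from the same vehicle array. The 1 lower gene was SLC7A11, the cystine transporter, which read 13.39 and 12.28, a log2 ratio of -1.11 outside the zone. Among NRF2 targets HMOX1, heme oxygenase, read 12.05 and 10.95, a log2 ratio of -1.10 over 10 spots on both sides of the border, and stood at 0.21 and 0.06 at 15 and 60 nM. HMOX1 was also 1.10 lower on the helveticoside vehicle than on the EEDS vehicle. The 11 genes of metallothioneins and zinc transport lay between -0.05 and 0.57, 10 of them above 0, with 0 past 2-fold. Their median was 0.36, above the upper quartile of all genes described, 0.21. In the p53 list 1 of 24 genes was past 2-fold, PLK3, and the median was 0.24, also above that quartile. The sodium pump list, the target of the drug class, had 0 of 7 genes past 2-fold and a median of 0.20, with 5 above 0 and 2 below. The ratios of this list ran from -0.54 to 0.77, with the beta subunit ATP1B1 at 0.48 and the regulator FXYD5 at 0.26. In the zone lay 4 of the 7 genes. Against the EEDS vehicle the median of the 7 was -0.005, where that of all genes described was -0.07. SLC38A2, a glutamine and alanine transporter, read 13.80 and 14.80, a log2 ratio of 1.01 outside the zone. MCL1, a guardian against apoptosis, read 10.66 and 11.75 in the zone.

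The Notch and splicing lists held genes in both directions. HES1 and HEY1, repressors downstream of Notch, had log2 ratios of 1.29 and 1.41, both in the zone, and HEYL, of the same family, had -1.22 outside it. Against the EEDS vehicle HES1 and HEY1 were within 2-fold, at 0.75 and 0.50, and HEYL stood at -1.85. DACT2, which modulates Wnt signalling, read 8.78 and 7.44, a log2 ratio of -1.34, outside the zone, and was not well above background at 15 or 60 nM. CLK4, a kinase of splicing factors, read 7.53 and 8.95, and SRSF7, a splicing factor, read 13.49 and 12.28, both outside the zone. CLDN4, a tight junction protein, read 8.51 and 10.12, a log2 ratio of 1.61 outside the zone, and stood at 0.23 and 0.04 at 15 and 60 nM. Its log2 ratio at 3.75 nM against the EEDS vehicle was 0.81. GATA6, a factor of endodermal tissues, had a log2 ratio of 1.09 and BAAT, which conjugates bile acids, one of -1.02, both outside the zone. Against the EEDS vehicle GATA6 and BAAT were within 2-fold, at 0.37 and -0.90. The proteins of the cytosolic ribosome, by contrast, lay between -0.45 and 0.20 in all 83 genes, with a median of 0.06.

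**Figure D5:**
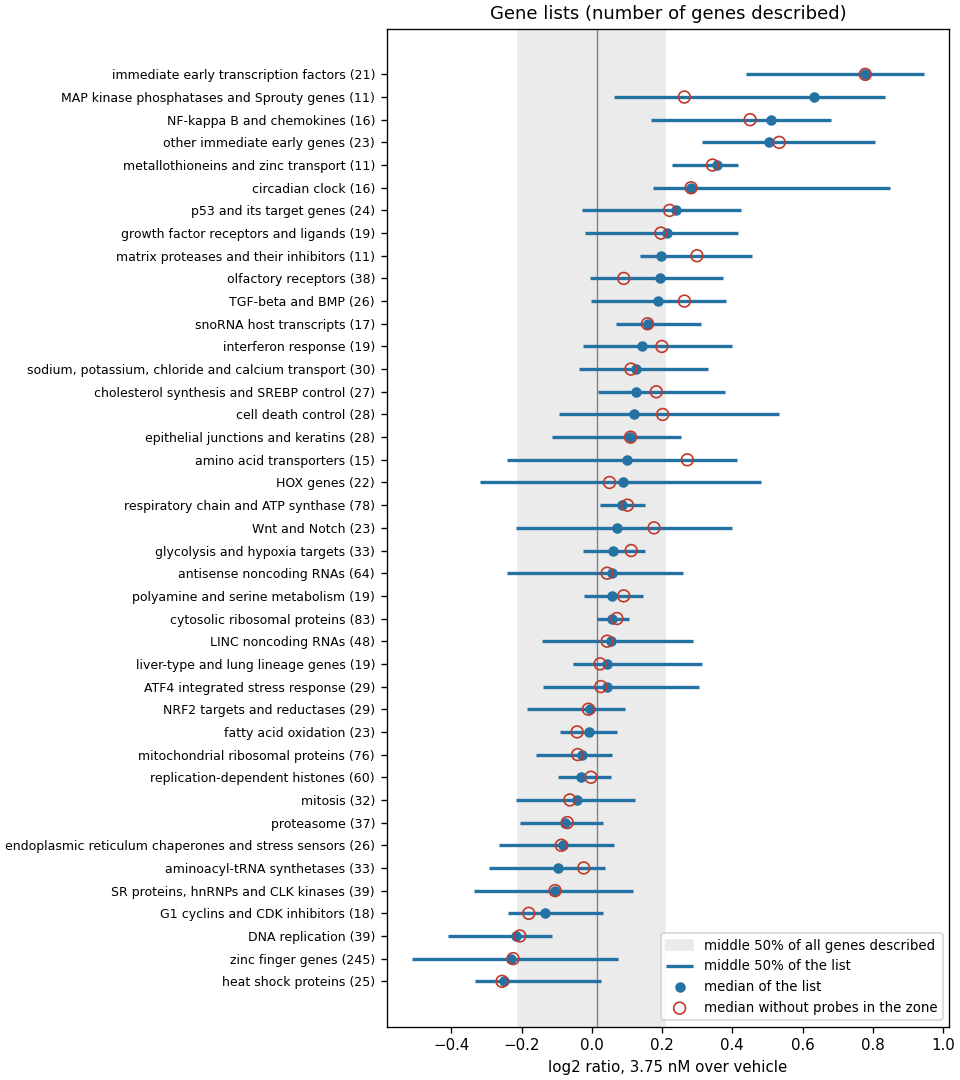
Median log2 ratio (filled circles) and middle 50% (bars) of 3.75 nM over vehicle for the lists with 10 or more genes described, with the number of genes in brackets, beside the middle 50% of all 11865 genes (grey band). Open circles give the median over genes outside the zone, 0.78 for immediate early transcription factors, -0.21 for DNA replication and -0.26 for heat shock proteins.

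Some genes were well above background on 1 array only, 214 at 3.75 nM and 672 on vehicle, and for these the ratio has only a bound. The bound exceeded 2-fold for 91 and 70 of them, of which 48 (52.7%) and 28 (40%) had their probe in the zone. The zone held 29.5% of the probe spots. DCLK1, a microtubule-associated kinase, was at least 8.92-fold higher at 3.75 nM, outside the zone, with 3.03 on vehicle and 8.71 at 3.75 nM, and with EEDS at 1.25 ug/mL it read 6.02 against 3.53 on that vehicle. DCT and SOX3 were at least 8.86-fold and 6.41-fold higher, both in the zone, and CPZ at least 5.72-fold, outside it. P2RX7, an ATP-gated channel with its probe in the zone, was at least 6.44-fold lower, with 8.65 on the helveticoside vehicle and 2.91 at 3.75 nM. It read between 2.89 and 2.92 at 15 and 60 nM, on the EEDS vehicle and at 1.25 ug/mL EEDS, so the helveticoside vehicle stood apart from every other array named here. CDNF, PDE7B, TAS2R50 and SRSF12 were lower by at least 5.27-, 4.31-, 4.11- and 4.09-fold, the first pair outside the zone and the second in it.

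The EEDS arrays offered a reading with a vehicle control of its own. At 1.25 ug/mL, 492 of 13287 genes (3.7%) exceeded the EEDS vehicle by more than 2-fold and 395 (2.97%) lay as far below it. Of the 146 higher genes readable there, 95 lay above 0 and 49 were more than 2-fold higher, which is 33.6% of the helveticoside list and 12.5% of the 391 described genes that EEDS put more than 2-fold higher. Of the 141 lower genes, 124 lay below 0 and 42 were more than 2-fold lower, 29.8% of the helveticoside list and 13.2% of the 317 for EEDS. Among all described genes 48.3% lay above 0 and 51.6% below. The position of the probes separated the higher genes in this reading. Of the 51 higher genes outside the zone, 48 lay above 0 with EEDS and their median was 0.91, whereas of the 89 in the zone 41 lay above 0 and the median was -0.10. For the lower genes the counts below 0 were 87 of 97 outside and 30 of 37 in the zone. Dose and array slot ran together in both series, since vehicle and the 3 rising doses occupied the same order of slots on the slide, so slot and dose cannot be told apart in these values.

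Other probes for the same genes gave a further reading within the arrays. For 14 higher genes another probe was well above background, and 12 of these 14 probes lay above 0 with 3 past 2-fold, at a median log2 ratio of 0.46 against 1.14 for the probes chosen. For 23 lower genes, 23 of 26 other probes lay below 0 with 4 past 2-fold, at a median of -0.52 against -1.10. A probe of TCEANC2 was more than 2-fold apart in the opposite direction, with a log2 ratio of 1.18.

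The genes counted also differed in kind. Higher genes were shorter, with a median annotated length of 15.3 kb against 27.6 kb for all described genes and 28.4 kb for the lower genes, and those outside the zone had a median of 20.4 kb. The higher genes were also dim, with a median log2 level on vehicle of 7.37 against 10.13 for all described genes, and 89 of the 147 lay in the zone. Whether their length or kind goes with level or position was not tested. Long noncoding RNAs made up 5.44% of the higher genes (8 genes), 1.42% of the lower (2 genes) and 1.78% of the described genes. RefSeq promoters of 300 bases, from 250 before to 50 after the start, were matched for 105 higher, 122 lower and 9555 described genes, and were searched on both strands for TGACGTCA, TGACTCA, the CArG box (CC, 6 letters A or T, GG), CACGTG, the EGR sites GCGGGGGCG and GCGTGGGCG, and the kappa B site. The AP-1 motif TGACTCA lay in 4.76% of higher, 0.820% of lower and 3.12% of described promoters, and in 4.92% of all 27305 promoters. The CArG box lay in 1 of the 105 higher promoters, that of EGR1, and in 1.04% of described and 1.29% of all promoters. CACGTG lay in 11.4% of higher, 13.9% of lower, 10.1% of described and 7.43% of all promoters. TGACGTCA, the cyclic AMP response element, lay in 2.86%, 2.46%, 3.19% and 1.98%, and the EGR sites in 5.71%, 7.38%, 9.31% and 5.70%. The kappa B site lay in 0 of 105 higher promoters, in 0.178% of described and 0.194% of all promoters. These are matches of letters in a window and not measured binding.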

How the data were processed

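A549 cells were profiled in one colour on Agilent human arrays. The authors pooled RNA from 3 cultures per dose and read the arrays with Agilent Feature Extraction (version not given in the sources used here). The deposited scanner files hold linear intensity per spot, background-subtracted in the processed signal, and calls of 0 or 1 (other values) for outliers and for signal well above background. The deposited series table holds the authors' quantile-normalized intensity and served as an alternative. Here, outlier spots were left out, spots of a probe were averaged, 8 arrays were quantile-normalized and log2 was taken. A probe was well above background where over 50% of its spots were. Of 34105 probes, 24812 matched 19056 genes through accessions in RefSeq, and 4797 genes had more than 1 probe. Bounds set the brighter array against the lowest signal well above background on the other. Each group held 1 array, so counts past 2-fold were made with no test. Quantile normalization and counting past 2-fold were checked on simulated arrays with known changes. That check covered brighter probes only and neither the filter nor the choice of probe. Named genes are the 15 largest and 15 smallest log2 ratios, the 5 largest bounds per direction, members of 43 gene lists past 2-fold and up to 3 further members per list by role; more list members are given than this rule names, and they, OR7C2, IDO1, TCEANC2 and the genes with a shared course over doses, were chosen after their values were seen. The comparison and lists were chosen with earlier results of these data known. Some genes that the rule names are not reported here. Precision is limited by the number of arrays. Alternatives covered scaling, background (limma 3.58.1, normexp with offset 50), filters, thresholds, control array and array position. Python 3.11.15, numpy 2.4.6, pandas 2.3.3 and R 4.3.3 were used.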

Additional observations from a re-analysis of the deposited data

How the results depend on the processing

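The 147 higher and 141 lower genes became 70 and 68 with no background subtracted and 73 and 70 with normexp. In the authors' table they were 57 and 45. They were 631 and 450 with the EEDS vehicle as control, an array of different background. At 1.5-fold they were 613 and 729, and at 3-fold 34 and 11. With no filter, or with a filter of 1.4 times local background, which every gene passed, they were 648 and 814. Outside the zone of the array, an alternative chosen after seeing the data, they were 52 and 97, and among genes whose vehicle arrays lay within 2-fold of each other, chosen likewise, 135 and 123. The 75th percentile, quantile normalization over 4 arrays, kept outlier spots, the median over probes and the filter on all 8 arrays moved neither count by more than 1.5 times. Under all 7 alternatives that change the scaling, background or probe summary and keep the helveticoside vehicle, 55 higher and 34 lower genes were past 2-fold, of which 16 and 24 lay outside the zone, and 40 and 22 of the 55 and 34 were also past 2-fold in the same direction against the EEDS vehicle. Named genes absent from the 55 and 34 include MAFF, DUSP5, DBP, MCL1, SLC38A2, HES1, HEY1, GATA6, HSPA8, PRIM1, SLC7A11, HMOX1, HEYL and BAAT. With the EEDS vehicle as control, 4 named genes changed sign: SCN3A (0.82), EXD2 (0.17), H2AC16 (0.079) and ZNF480 (0.068). Of the 83 genes that the naming rule took past 2-fold, 26 others moved by more than 0.50 on the log2 scale with that control. As many moved in the authors' table, 18 with no background subtracted and 16 with normexp. The median of immediate early transcription factors ran from 0.52 to 0.78 over the alternatives (0.52 over the 22 genes readable with the EEDS vehicle as control, and 0.38 over the 21 genes described), that of DNA replication from -0.42 to -0.13, that of heat shock proteins from -0.26 to -0.06 and that of zinc finger genes from -0.23 to -0.17. With 1 array per dose, no replicate could be left out, and the difference has no replicate check. No paired analysis was possible because each group held 1 array with no replicate number shared. Cultures, drug and array slot cannot be told apart, and dim genes, which hold most counts, are the least certain.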
